A study of Homo sapiens with 12 samples.

Results

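The comparison described here set HEK293T cells transfected with si-snaR-A#1 against cells transfected with a scramble siRNA. It used 6 of the 12 libraries of the series, 3 per group, and every gene that passed an expression filter, 21999 of the 63541 gene IDs in the table. HEK293T is a human embryonic kidney line that carries the large T antigen of SV40. Both groups received 12.5 nM siRNA with a lipid transfection reagent and were collected after 48 h, so that they share the transfection itself, and polyadenylated, rRNA-depleted RNA was sequenced with a stranded kit. They differed in the siRNA given. The other 6 libraries, from cells given si-snaR-A#2 or si-snaR-A#3, entered the same fit and serve here only to show whether a level seen with si-snaR-A#1 also differed from them. All cells came from 1 line. The methods of the study call replicates of its genomic experiments biological and handled within a day, and do not say whether they were separate cultures, so p-values measure the spread between samples prepared together.

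snaR-A is a short noncoding RNA made by RNA polymerase III. An siRNA is a short RNA duplex, 1 strand of which guides an Argonaute protein to RNAs that pair with it, and it lowers transcripts with full pairing as well as some with pairing to its seed alone. With 1 siRNA against 1 control, these kinds of effect cannot be told apart. Of 14 snaR-A genes in RefSeq, 0 could be matched to a symbol in the table, so the loss of snaR-A was not measured in these libraries.

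In units of 1e6 estimated counts, library totals ran from 120.37 to 142.08 with si-snaR-A#1 and from 123.03 to 180.11 with scramble. Of 8 kidney and neural genes known in HEK293 cells, 7 had at least 1 CPM (counts per 1e6 counts of the library) in every library and 1, LHX1, was under 1 CPM. Of 8 monocyte genes, all 8 were under 1 CPM in every library. Of 8 genes listed for lung epithelium, 3 were at or above 1 CPM (NKX2-1, NAPSA and CDKN2A). CDKN2A is a cell cycle inhibitor gene and does not mark lung cells. Genes of the mitochondrial genome took between 3.66% and 4.53% of counts with si-snaR-A#1 and between 4.78% and 6.05% with scramble. Levels below are CPM on TMM library sizes and are compared between groups, not between genes. Differences are log2 fold changes from edgeR's quasi-likelihood test with their standard errors (SE). Calls were made at an adjusted p (Benjamini-Hochberg, over all 21999 genes) under 0.05.

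Of all genes tested, 4814 (21.9%) were called higher and 5127 (23.3%) lower after si-snaR-A#1. In 5633 genes (25.6%) all 3 si-snaR-A#1 libraries lay above all 3 scramble libraries, and in 5996 (27.3%) they lay below. Among protein-coding genes that averaged 10 CPM or more, 30.3% were called higher and 33.5% lower, and most gene lists below are made of such genes, so this is the nearer background for them. The balance of the directions was not stable, and RLE scaling gave 4927 higher and 4904 lower. The median log2 fold change over all genes was -0.02. The si-snaR-A#1 level was above both si-snaR-A#2 and si-snaR-A#3 for 3873 genes (17.6%) and below both for 4178 (19%), with each difference called.

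The largest changes among well-expressed protein-coding genes were 12 rises and 12 falls of between 2.65- and 4.28-fold, chosen by size among called genes, so their size and their separation from scramble are given as a description. The rises included regulators of gene expression. MYB (chr6:135181308-135219173 in GRCh38, as are all positions given), a transcription factor of immature and dividing cells, was at 7.41, 8.53 and 7.96 CPM in the scramble libraries and at 26.7, 29.3 and 26.2 CPM in the si-snaR-A#1 libraries (log2 fold change 1.78, SE 0.06, edgeR adjusted p 1.1e-09). NR6A1, a nuclear receptor of germ and embryonic cells, was at 24.0, 24.1 and 22.6 CPM in scramble and 76.5, 64.2 and 63.9 CPM with si-snaR-A#1 (log2 fold change 1.53, SE 0.08). The groups did not overlap for either gene, and the lowest si-snaR-A#1 library held over 2 times the highest scramble library for both.

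The other rises were in PLXNC1, a semaphorin receptor (log2 fold change 1.79), HLF, a leucine zipper transcription factor (1.55), NANOS1, a translational repressor of the germ line (1.55), GPR50, a receptor related to the melatonin receptors (1.52), P3H2, a collagen prolyl hydroxylase (1.49), SOWAHA (1.47), B4GALT1, a galactosyltransferase of the Golgi (1.42), DHX37, a helicase of ribosome assembly (1.41), PLEKHB2 (1.41) and DDN, a dendritic protein (1.41). Their SE was between 0.04 and 0.14. The level of PLEKHB2 after si-snaR-A#2 was not called different, at 0.004 on the log2 scale (edgeR adjusted p 0.954).

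The falls were led by ERAP2 (chr5:96875986-96919703), an aminopeptidase that trims peptides for antigen presentation. It was at 14.05, 15.4 and 14.3 CPM in scramble and at 3.48, 3.58 and 3.17 CPM with si-snaR-A#1 (log2 fold change -2.10, SE 0.06, edgeR adjusted p 6.0e-10). SMIM30, a small membrane protein, was at 80.2, 87.9 and 85.8 CPM in scramble and 24.4, 25.4 and 23.2 CPM with si-snaR-A#1 (log2 fold change -1.80, SE 0.05). PHYH, the peroxisomal enzyme that starts phytanic acid breakdown, went from 29.4, 32.5 and 32.5 CPM to 8.69, 10.6 and 9.03 CPM (-1.74, SE 0.08). In each of these genes the highest si-snaR-A#1 library lay far below the lowest scramble library.

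PABPN1, the nuclear poly(A)-binding protein, was at 224, 213 and 218 CPM in scramble and at 72.3, 74.1 and 84.1 CPM with si-snaR-A#1 (log2 fold change -1.51, SE 0.06). RAP1A, a small GTPase of adhesion signalling, and ITCH, a ubiquitin ligase, fell by 1.49 and 1.59. The other falls were in NTAN1 (-1.88), INA, a neuronal intermediate filament (-1.72), PCK1, the cytosolic enzyme of gluconeogenesis (-1.66), TCEAL3 (-1.61), SYP, the synaptic vesicle protein synaptophysin (-1.60), and OSTN (-1.55). NTAN1 had the widest error of the 24, an SE of 0.38, with 2.75, 3.29 and 1.43 CPM in the si-snaR-A#1 libraries. Exons of PABPN1, NTAN1, INA, TCEAL3, SYP, ITCH and OSTN, and of PLXNC1, MYB, NANOS1, GPR50, B4GALT1, PLEKHB2 and DDN among the rises, overlap exons of another annotated gene. The use of strand in the counting is not stated, so counts of genes with such an overlap, here and for other genes named with one, are uncertain to that extent. Of the 24 genes, 22 differed in the same direction from both other siRNAs, and the exceptions were PLEKHB2 and SYP.

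**Figure D1:**
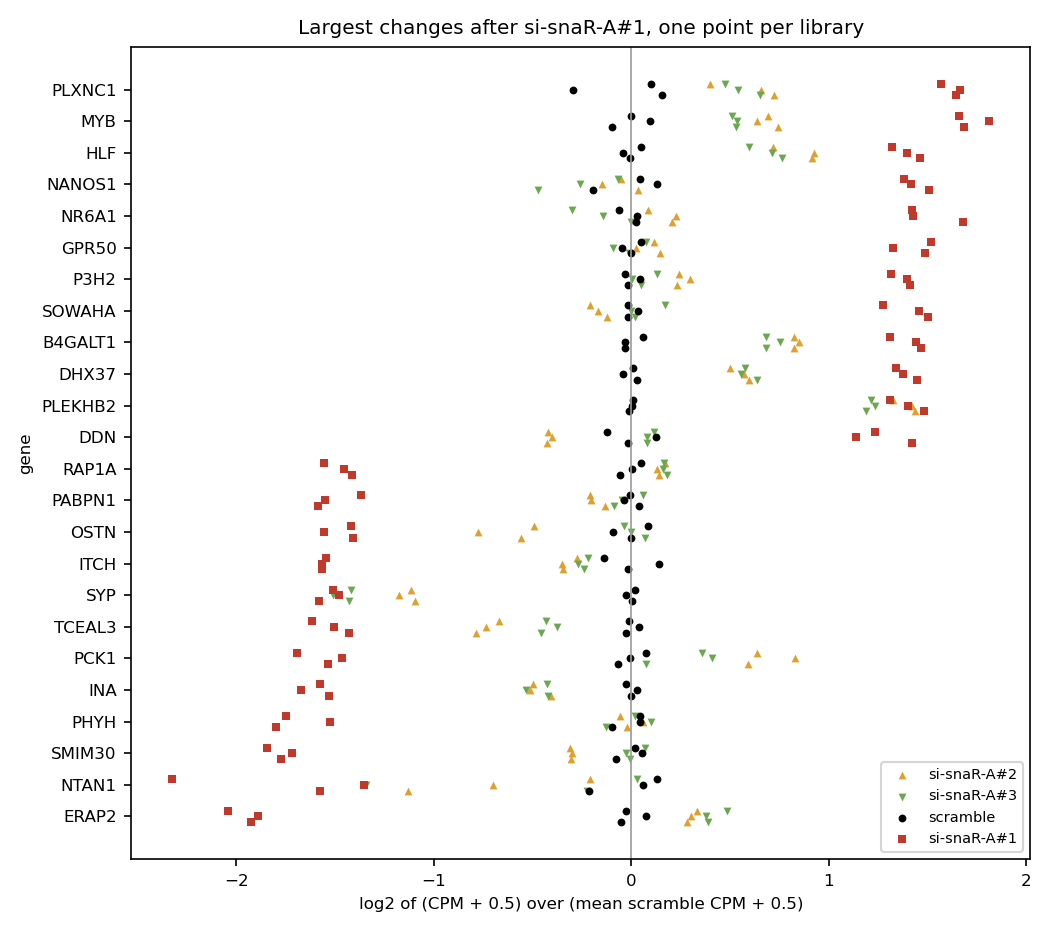
Log2 ratio of each library's CPM to the mean of the scramble libraries (horizontal axis, 0.5 CPM added to both) for the 12 largest rises and 12 largest falls, 3 points per group. The red si-snaR-A#1 points stand clear of the black scramble points for all 24 genes. Points of the other siRNAs lie at various levels, those of si-snaR-A#2 among the red ones for PLEKHB2 and those of si-snaR-A#3 among them for SYP, and 1 si-snaR-A#3 library of NTAN1 also reaches the red points.

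The changes after si-snaR-A#1 followed the base composition of the transcripts. Protein-coding genes were put in 4 equal bins by the GC content of their exons. In the bin with the lowest GC content, from 29.17% to 41.81%, 15.4% of 3769 genes were called higher and 45.3% lower, with a median log2 fold change of -0.16. In the bin with the highest, from 56.45% to 76.85%, the order was the reverse, with 34.3% higher, 13.9% lower and a median of 0.11. The middle bins lay between, at 21.1% higher and 32.6% lower, then 28.8% higher and 23.7% lower.

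The same order was seen in each of the 3 si-snaR-A#1 libraries. Set against the mean of the scramble libraries, the median log2 ratio of the lowest bin was -0.104, -0.115 and -0.179 in the 3 si-snaR-A#1 libraries and between -0.022 and 0.025 in the scramble libraries. That of the highest bin was 0.085, 0.078 and 0.104 with si-snaR-A#1 and between -0.023 and 0.026 with scramble. Libraries of the other siRNAs leaned the other way, between 0.038 and 0.08 in the lowest bin and between -0.082 and 0 in the highest. Without regard to GC content, transcript length moved little with the calls. Shares were 20.7% higher and 27.9% lower in the shortest of 4 bins and 27.6% and 28.5% among the longest. Within the highest GC bin they were 26.7% and 15.3% for the shortest transcripts and 43.4% and 12.1% for the longest. Within the lowest GC bin they were 11.5% and 45.6% for the shortest and 18.5% and 42.1% for the longest. What produces a trend with GC content was not tested, and the group and a library effect on GC content cannot be told apart from these files, so the GC content of the main gene lists is given beside their results, with the median after a trend of GC content and length was removed.

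**Figure D2:**
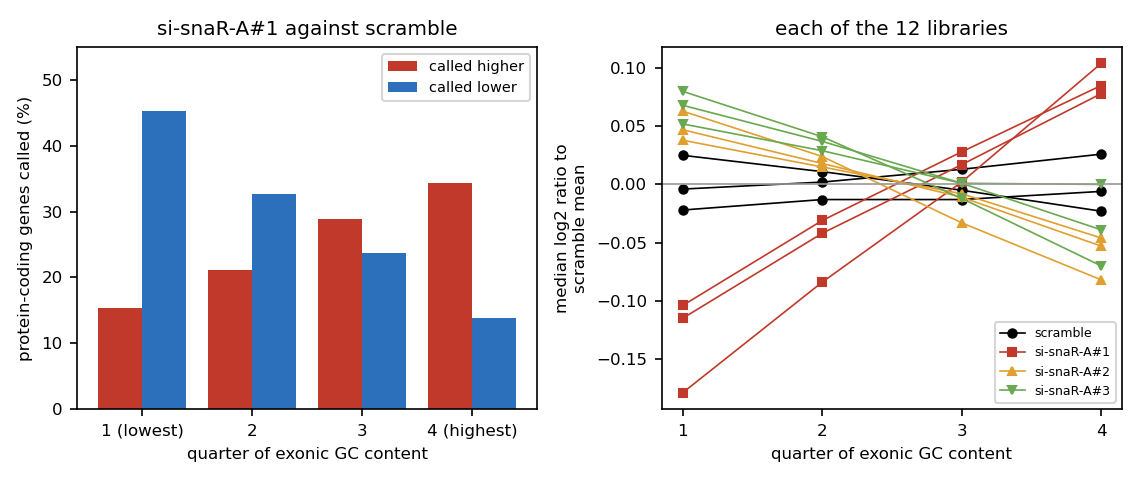
Left, the share of protein-coding genes called higher or lower after si-snaR-A#1 in each of 4 bins of exonic GC content. Right, the median log2 ratio to the mean of the scramble libraries in each bin, 1 line per library: the 3 si-snaR-A#1 lines climb from between -0.179 and -0.104 to between 0.078 and 0.104, and the scramble lines stay between -0.023 and 0.026.

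Classes of genes from the annotation moved apart as well. Of 297 protein-coding genes with a single exon, 113 were called higher and 36 lower (12.1%), with a median log2 fold change of 0.26. Of 14778 genes with several exons, 24.6% were higher and 29.2% lower, with a median of -0.03. GC content was not compared between these 2 classes, and the part of the GC trend in their difference was not tested. Among 4728 long noncoding RNAs 16.4% were higher and 11.1% lower, and of those called, 297 were over 2-fold higher and 144 over 2-fold lower. The largest changes among lncRNAs with at least 1 CPM included rises of ENSG00000287817, ENSG00000291081 and ENSG00000273759 by 2.05, 1.96 and 1.76 on the log2 scale. LINC00467 was at 6.83, 6.70 and 5.99 CPM in scramble and 1.59, 2.04 and 1.79 CPM with si-snaR-A#1 (log2 fold change -1.85, SE 0.13). PHEX-AS1, DNAH10OS and ENSG00000232611 fell by 1.66, 1.46 and 1.46. Exons of ENSG00000291081, DNAH10OS and ENSG00000232611 overlap those of other genes.

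Of 57 gene lists, made by pathway, complex or gene class, 24 had a median log2 fold change above 0. The lists were written with earlier results of these data known, and each is described by the number of members called and its median, with no test of the list. The lowest medians were in the hypoxia response, the interferon response, the genes of the mitochondrial genome, the HOX genes and the microRNA machinery. The highest were in replication-dependent histones, ribosome biogenesis, immediate early genes and snoRNA host genes.

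**Figure D3:**
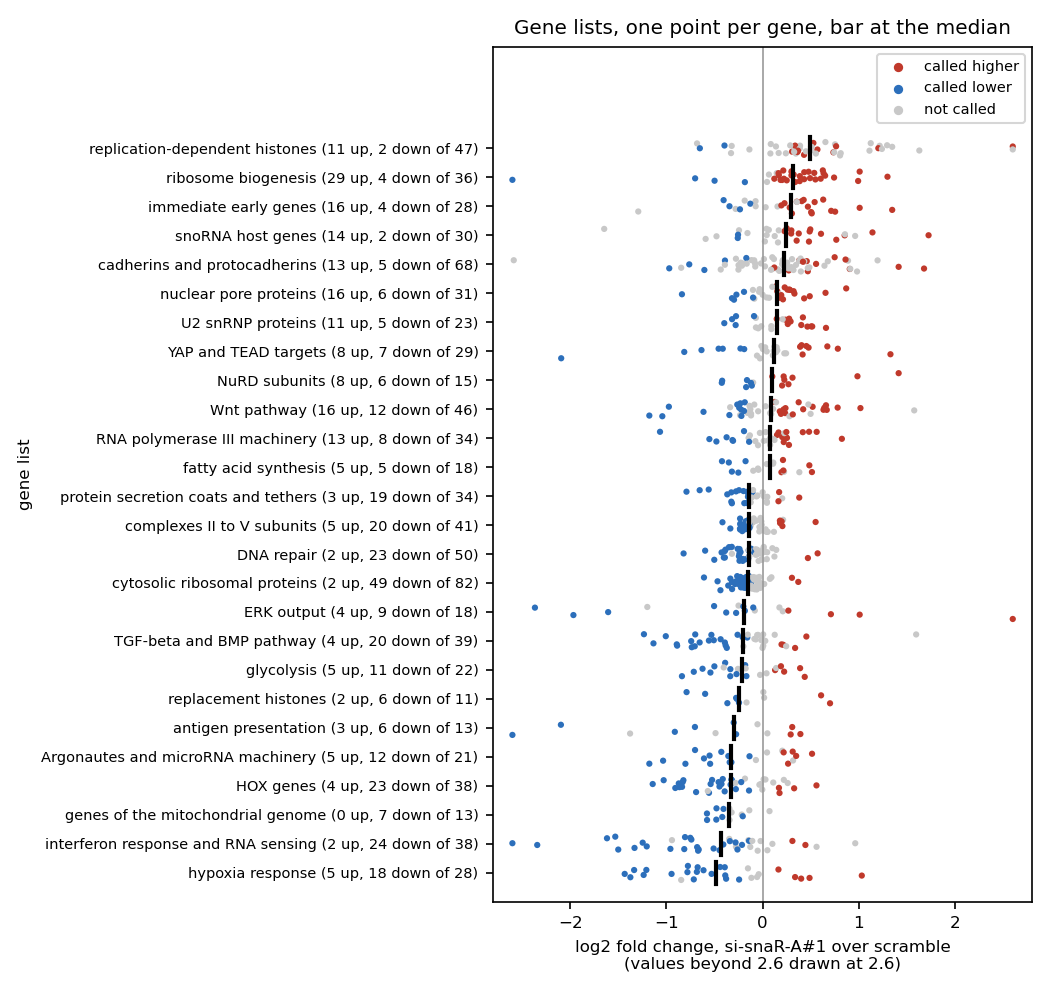
Log2 fold change of each member (points, red where called higher, blue where called lower, grey where not called) in the 14 lists with the lowest and the 12 with the highest median (black bar), with the counts of calls beside each name and values beyond 2.6 drawn at 2.6. The hypoxia and interferon lists sit mostly to the left of 0, with medians of -0.485 and -0.428, and ribosome biogenesis mostly to the right, at 0.313.

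The hypoxia response was the list with the lowest median. When oxygen is short, the hydroxylases that mark HIF1A for destruction through VHL slow down, and HIF1A with its partner ARNT switches on genes for glycolysis, mitophagy and vessel growth from promoter elements with the core ACGTG. The cells here were grown with no change in oxygen between the groups that the labels state. Of 28 members tested, 18 were called lower and 5 higher, with a median log2 fold change of -0.485 (median GC content 46.5%). The median was -0.454 after the GC and length trend was removed, with 20 lower and 5 higher. Per library, the median ratio of the members to the scramble mean was between -0.516 and -0.298 with si-snaR-A#1 and between -0.038 and 0.032 with scramble. Exons of HIF1A and VHL overlap those of other genes.

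MXI1, a MYC antagonist, was at 93.4, 99.0 and 99.9 CPM in scramble and at 36.9, 37.1 and 34.2 CPM with si-snaR-A#1 (log2 fold change -1.43, SE 0.04, edgeR adjusted p 6.0e-10). BNIP3, which drives the removal of mitochondria, was at 228, 243 and 254 CPM in scramble and 92.4, 102 and 85.2 CPM with si-snaR-A#1 (-1.37, SE 0.07). Its relative BNIP3L fell from a mean of 159 CPM to 67.6 CPM. ANKRD37 was at 7.46, 7.55 and 8.12 CPM in scramble and 2.697, 3.66 and 2.803 CPM with si-snaR-A#1 (-1.33, SE 0.13). The groups were far apart for all of these genes. For MXI1, BNIP3 and ANKRD37 the lowest scramble library held over 2 times the highest si-snaR-A#1 library. Exons of MXI1, MYC, BNIP3L and ANKRD37 overlap those of other genes.

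HIF1A itself fell from 201 ± 8.32 to 125 ± 8.31 CPM (SD, n = 3 each, log2 fold change -0.68). Of the hydroxylases, EGLN1 and EGLN3 fell by 0.78 and 0.53. LOX, a collagen cross-linking enzyme, fell by 1.21, PDK1, which keeps pyruvate out of mitochondria, by 0.95, HILPDA, a lipid droplet protein, by 0.78, and SLC2A1, the glucose transporter GLUT1, by 0.71. The members called higher were CA12, a carbonic anhydrase (1.03), EPAS1, the relative of HIF1A also named HIF2A (0.49), the peptide hormone gene ADM (0.40), ARNT (0.34) and PDK3 (0.17). VHL, VEGFA, NDRG1, P4HA1 and CA9 were not called, with values of -0.15, -0.12, -0.04, -0.06 and -0.85. Against the other siRNAs, 19 of the 28 members were lower than both and 3 higher than both. Exons of EGLN1, LOX, PDK1, HILPDA, SLC2A1, VEGFA, NDRG1, P4HA1 and CA9 overlap those of other genes.

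The RefSeq promoter table (GRCh38.p14, from 250 bases before a start to 50 after it) holds 21 of the 28 genes. ACGTG, the core to which HIF1A and ARNT are known to bind, was searched on both strands, where the reverse strand reads CACGT and the palindrome CACGTG holds both. It was in the promoters of 12 of these 21 genes (57.1%) and in 9 of the 14 that fell (64.3%), against 3735 of 11925 protein-coding genes tested (31.3%). The genes of the list were picked as known HIF targets, so a higher share belongs to the choice of the list, and a match of 5 letters is no evidence of binding. The matches in the 5 genes with the largest falls among those with a match are shown, 1 per gene, because they hold the element the list is built on, in the direction of the gene, with the matched letters in capitals.
MXI1 (chr10:110210106-110210134, + strand): gtggccaccagtCACGTaagcagagagcc
BNIP3 (chr10:131982040-131982068, - strand): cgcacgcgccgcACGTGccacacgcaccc
ANKRD37 (chr4:185396668-185396696, + strand): gcgccgggctccACGTGccagtgtttgtg
LOX (chr5:122078341-122078369, - strand): tccaatcgcattACGTGaacaaatagctg
PDK1 (chr2:172556061-172556089, + strand): cctgctgcccgcCACGTccctcacgtacc
BNIP3 carries the match 133 bases before its start and ANKRD37 161 bases before it. The promoters of ANKRD37, LOX and PDK1 hold further matches, of which that of PDK1 is in lower case in its window.

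Glycolysis genes, several of which HIF1A also drives, showed 11 of 22 members lower and 5 higher (median -0.218, GC content 53.3%, and -0.220 with the trend removed). PFKFB4, which sets the level of an activator of phosphofructokinase, fell from 37.9 ± 1.14 to 21.2 ± 0.948 CPM (SD, n = 3 each, log2 fold change -0.84, SE 0.06). The enzymes PGK1, TPI1, GAPDH, LDHB and ENO1 fell by 0.62, 0.54, 0.39, 0.34 and 0.34. The liver-type phosphofructokinase PFKL and hexokinase HK1 rose by 0.44 and 0.39, and the muscle-type pyruvate kinase gene PKM was not called (0.04). PFKFB4 differed from si-snaR-A#2 by -0.975 and from si-snaR-A#3 by -0.17 (edgeR adjusted p 4.6e-08 and 0.0279). Exons of PFKFB4, PGK1, TPI1, GAPDH, LDHB, ENO1 and HK1 overlap those of other genes.

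Most genes for ribosome assembly rose. Ribosome biogenesis starts with RNA polymerase I, which makes the rRNA precursor in the nucleolus, and continues with processing by snoRNA-guided enzymes, and MYC is known to drive many of its genes. Of 36 members tested, 29 were called higher and 4 lower, with a median log2 fold change of 0.313 (GC content 46.1%). The counts were 29 and 3 and the median 0.343 with the trend removed. Per library the median ratio was between 0.312 and 0.361 with si-snaR-A#1 and between -0.003 and 0.005 with scramble.

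NOLC1, a nucleolar chaperone of snoRNPs, was at 173, 171 and 174 CPM in scramble and at 444, 427 and 403 CPM with si-snaR-A#1 (log2 fold change 1.30, SE 0.04, edgeR adjusted p 6.1e-10). MYC was at 160, 166 and 171 CPM in scramble and 346, 342 and 310 CPM with si-snaR-A#1 (1.01, SE 0.05). POLR1B, a core subunit of RNA polymerase I, was at 72.3, 77.0 and 71.1 CPM in scramble and 157, 141 and 141 CPM with si-snaR-A#1 (0.99, SE 0.07). Every si-snaR-A#1 library of these genes lay well above every scramble library. Exons of POLR1B overlap those of other genes.

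The largest subunit gene POLR1A (0.65), the polymerase I factors UBTF (0.55) and TAF1C (0.54), TCOF1, a nucleolar scaffold (0.74), the pseudouridine synthase DKC1 (0.63) and the processing factors RRP9 (0.60), RRP12 (0.39) and DDX21 (0.48) also rose. Members called lower were POLR1E, another polymerase I subunit (-0.70), TAF1B (-0.50), the abundant nucleolar protein NPM1 (-0.18) and RRN3, the initiation factor of polymerase I. RRN3 was listed at 0 in all 3 si-snaR-A#1 libraries and at 27.8, 6.99 and 16.8 CPM in scramble. It is uncertain, being among 91 IDs that held at least 100 counts in 1 of the 6 libraries and 0 in another. Of the 36 members, 23 were above both other siRNAs and 4 below both. The difference of NOLC1 from si-snaR-A#2 was not called, at 0.10 on the log2 scale (edgeR adjusted p 0.0556), while MYC exceeded its level there by 0.78 and si-snaR-A#3 by 0.70 (edgeR adjusted p 1.0e-07 and 2.2e-07). Exons of UBTF, TAF1C, DKC1 and RRP12 overlap those of other genes.

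The host genes of snoRNAs, whose introns release the RNAs that guide rRNA modification, gave 14 higher and 2 lower of 30 (median 0.240, GC content 44.5%, 0.282 with the trend removed). SNHG19 was at 3.33, 2.96 and 3.17 CPM in scramble and 9.77, 11.5 and 10.1 CPM with si-snaR-A#1, and SNHG4 at 41.0, 36.0 and 36.5 CPM and 82.2, 82.8 and 85.7 CPM. In contrast, the genes of the ribosomal proteins themselves were mostly lower or not called. Of 82 cytosolic ribosomal protein genes, 49 were called lower and 2 higher, with a small median of -0.149 (GC content 47.4%). The number called lower was 30 with the trend removed, 29 when only the 6 libraries were fitted and 32 without scramble replicate 3. Mitochondrial ribosomal protein genes gave 25 higher and 13 lower of 77, with a median of 0.03, and 8 lower without scramble replicate 3, on the 6 libraries or with edgeR's exact test. Exons of SNHG19 and SNHG4 overlap those of other genes.

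Nuclear pore genes, whose products line the channel between nucleus and cytoplasm, gave 16 higher and 6 lower of 31 (median 0.153, GC content 43.3%, 0.174 with the trend removed). Against the other siRNAs, 10 of the 31 were above both and 10 below both. Their median difference was 0.044 from si-snaR-A#2 and -0.016 from si-snaR-A#3. POM121, a membrane anchor of the pore, was at 93.7, 91.8 and 93.6 CPM in scramble and 177, 167 and 165 CPM with si-snaR-A#1 (log2 fold change 0.87, SE 0.05), although near-identical copies of this gene make its counts uncertain. The mRNA export factor GLE1 rose by 0.65 and the scaffold NUP188 by 0.49. NUP54, a protein of the central channel, fell by 0.84 and TPR, of the nuclear basket, by 0.30. Exons of POM121, GLE1, NUP188, NUP54 and TPR overlap those of other genes.

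The HOX genes, which set position along the body axis and lie in 4 clusters, were mostly lower. Of 38 tested, 23 were called lower and 4 higher, with a median of -0.328 (GC content 55.2%, -0.399 with the trend removed). In the HOXA cluster on chromosome 7, 10 of 11 genes were called lower, with a median of -0.823. HOXA9 (chr7:27162438-27175180) was at 128, 132 and 131 CPM in scramble and at 58.4, 59.6 and 58.9 CPM with si-snaR-A#1 (log2 fold change -1.14, SE 0.04, edgeR adjusted p 1.0e-09). HOXA5, HOXA7, HOXA10 and HOXA13 fell by 0.84, 0.87, 0.82 and 0.83. In the HOXC cluster HOXC13 fell from 19.98 ± 0.490 to 9.795 ± 0.364 CPM (SD, n = 3 each), while HOXC4, HOXC11 and HOXC12 rose by 0.17, 0.33 and 0.56. HOXB9 rose by 0.18 and HOXD13 was not called (0.03). Of the 38 genes, 11 were below and 5 above both other siRNAs. Of the 11 HOXA genes, 4 were below both and 1 above both, and their median difference was -0.165 from si-snaR-A#2 and -0.192 from si-snaR-A#3. HOXA9 was below both, by 0.65 and 0.82, while HOXA4, which fell by 0.32 against scramble, was above both, by 0.38 and 0.86. Exons of HOXA9, HOXA4, HOXA7, HOXA10, HOXA13, HOXC13 and HOXC4 overlap those of other genes.

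**Figure D4:**
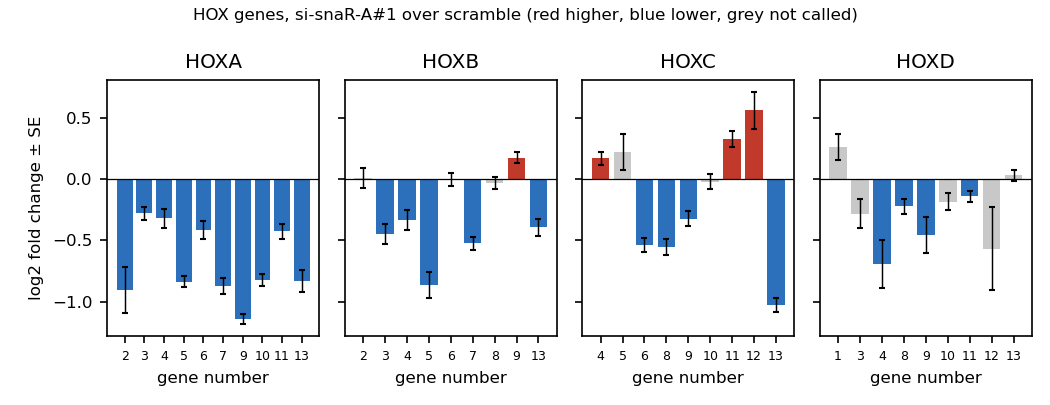
Log2 fold change of HOX genes after si-snaR-A#1 (bars, ± SE), in the 4 clusters from low to high gene number. Log2 fold changes of the HOXA genes drawn all lie below 0, down to -1.14 for HOXA9, and the other clusters hold bars in both directions.

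Genes of the TGF-beta and BMP pathway, in which secreted ligands signal through receptor kinases to SMAD proteins, gave 20 lower and 4 higher of 39 (median -0.200, GC content 45.6%, -0.204 with the trend removed). Among ligands, BMP2 fell from 59.5 ± 1.68 to 32.1 ± 1.16 CPM (SD, n = 3 each), and BMP4 and INHBA fell by 0.74 and 1.13, while TGFB1 and TGFB2 rose by 0.20 and 0.46. Among receptors, ACVR2B, TGFBR2 and ACVR2A fell by 0.70, 0.56 and 0.44, and ACVR1B rose by 0.21. The signal transducers SMAD1, SMAD2, SMAD3 and SMAD4 were not called, with values between -0.05 and 0.01, and SMAD5 and SMAD9 fell by 0.39 and 0.51. Exons of BMP4, INHBA, TGFB1, TGFB2, ACVR2A, SMAD1, SMAD3, SMAD4 and SMAD5 overlap those of other genes.

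Targets and regulators of the pathway included the largest fall. ID2, an inhibitor of differentiation induced by BMP, was at 302, 314 and 330 CPM in scramble and at 132.6, 134.5 and 135.4 CPM with si-snaR-A#1 (log2 fold change -1.23, SE 0.04, edgeR adjusted p 1.2e-09). ID4 and ID1 fell by 0.89 and 0.65, and the inhibitory SMAD6 by 0.74. SMURF2, a ubiquitin ligase for receptors and SMADs, went from 67.3, 70.3 and 67.4 CPM to 34.2, 33.7 and 34.2 CPM. Its relative SMURF1 was not called and varied widely, at 2.797 ± 2.82 CPM in scramble and 8.305 ± 5.00 CPM with the siRNA (SD, n = 3 each). Of the 39 genes, 19 were below both other siRNAs and 2 above both. Exons of ID2, SMURF2 and SMURF1 overlap those of other genes.

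Other signalling lists moved in both directions. Among protein-coding genes that averaged 10 CPM or more, 30.3% were higher and 33.5% lower. In the Notch pathway, 12 of 33 genes were higher (36.4%) and 8 lower (24.2%), with a median of 0.05 (GC content 55.9%). With the trend removed, 10 were higher and 10 lower, with a median of 0.005. The ligand genes DLL1 and DLL4 rose by 1.14 and 1.25 and the feedback target NRARP by 0.84, from 53.6, 50.7 and 55.5 CPM to 95.1, 95.2 and 95.0 CPM. RBPJ, the DNA-binding partner of Notch, fell by 0.50. In the Wnt pathway, 16 of 46 were higher (34.8%) and 12 lower (26.1%), with a median of 0.08, and -0.02 with the trend removed. The receptor gene FZD4 rose by 1.02 while FZD6 and the co-receptor RYK fell by 1.18 and 1.04. In the Hedgehog pathway, 5 of 17 were higher and 2 lower (median 0.03), but 4 lower without si-snaR-A#1 replicate 3, 1 lower with edgeR's exact test, and 5 higher and 5 lower with the trend removed (median -0.102). Among immediate early genes, 16 of 28 were higher and 4 lower (median 0.293, GC content 55.2%, 0.188 with the trend removed), with EGR2 at 1.35, IER5 at 0.75 and SRF at 0.63. FOS, EGR1 and NR4A1 were not called (-0.28, 0.03 and -0.07). In the ERK output list, 9 of 18 were lower and 4 higher. ETV5 fell by 1.60 and ETV4, at 0.54 CPM in scramble, by 1.97, and the phosphatase gene DUSP5 rose by 0.71. PHLDA1 was listed at 0 in all scramble libraries and between 4.29 and 4.41 CPM with si-snaR-A#1. It is uncertain in the same way as RRN3, being another of the 91 IDs with at least 100 counts in 1 library and 0 in another, and its call (edgeR adjusted p 0.0257) was lost without any one of the scramble libraries. Exons of DLL1, NRARP, FZD4, FZD6, EGR2, NR4A1, ETV5, ETV4 and PHLDA1 overlap those of other genes.

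Antiviral genes were mostly lower. HEK293T cells are known for weak sensing of foreign nucleic acid, and most of these genes were at low levels. Of 38 interferon response and RNA sensing genes, 24 were called lower and 2 higher (median -0.428, GC content 48.4%, -0.406 with the trend removed). SAMD9 was at 1.81, 1.97 and 1.63 CPM in scramble and 0.386, 0.377 and 0.302 CPM with si-snaR-A#1. OAS3, which makes the activator of RNase L, was at 7.35, 7.59 and 7.003 CPM and 2.45, 2.65 and 2.49 CPM. The kinase gene EIF2AK2, the sensor IFIH1 and the factor STAT2 fell by 0.68, 0.81 and 0.75, ISG15 was not called (-0.02) and BST2 rose by 0.45. The number higher was 0 without replicate 1 of either group, with the trend removed or with no expression filter, and 1 without any other library, with the replicate block or with DESeq2. It was 4, with 22 lower, on the 6 libraries alone, and 3, with 19 lower, with the filter at a mean of 1 CPM. With edgeR's exact test 19 were lower and 2 higher. Below both other siRNAs were 17 members, and 1 was above both. Exons of EIF2AK2 and ISG15 overlap those of other genes.

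Of 13 antigen presentation genes, 6 were lower and 3 higher (median -0.300, GC content 55.1%, -0.317 with the trend removed). With the filter at a mean of 1 CPM the median was -0.138, with 5 lower and 3 higher. ERAP1, the partner of ERAP2, fell from 11.2 ± 0.328 to 5.94 ± 0.386 CPM (SD, n = 3 each, log2 fold change -0.91), B2M, the light chain of class I molecules, fell by 0.28, and HLA-E and TAP2 rose by 0.31 and 0.29. Exons of ERAP1 and TAP2 overlap those of other genes.

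Genes of the machinery by which small RNAs act gave more lower than higher calls. Of 21 Argonaute and microRNA genes, 12 were lower and 5 higher (median -0.324, GC content 45.0%, -0.250 with the trend removed). The number higher was 3 without si-snaR-A#1 replicate 2 or scramble replicate 2. DICER1, which cuts microRNA precursors, was at 223, 218 and 191 CPM in scramble and 97.9, 88.7 and 93.2 CPM with si-snaR-A#1 (log2 fold change -1.18, SE 0.10). DDX6, a helicase of mRNA repression, was at 284, 292 and 280 CPM and 145, 141 and 133 CPM (-1.03, SE 0.05). AGO4 fell by 0.80 and LIN28B, which blocks let-7 maturation, by 0.70, while AGO2, the Argonaute that cuts paired RNA, rose by 0.51 (SE 0.12). DICER1, DDX6 and AGO4 were below both other siRNAs and AGO2 above both, by 0.34 and 0.41 (edgeR adjusted p 0.0402 and 0.0153). Exons of DICER1, DDX6, LIN28B and AGO2 overlap those of other genes.

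PABPC1 and PABPC4, which bind the poly(A) tails of mRNAs, fell, and genes of stress granules gave calls on both sides. PABPC1, the main cytoplasmic poly(A)-binding protein, was at 1375, 1458 and 1465 CPM in scramble and 653, 676 and 605 CPM with si-snaR-A#1 (log2 fold change -1.15, SE 0.05), and PABPC4 fell by 0.35. Of 24 stress granule genes, 8 were lower and 8 higher (33.3% each). Among protein-coding genes that averaged 10 CPM or more, 33.5% were lower and 30.3% higher. ATXN2, FMR1 and TIA1 fell by 0.77, 0.60 and 0.60, and G3BP2 rose by 1.16, less than with the other siRNAs, from which it differed by -0.53 and -0.52. SSB, which encodes La, fell by 0.88. Exons of PABPC1, PABPC4, ATXN2, FMR1, TIA1, G3BP2 and SSB overlap those of other genes.

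**Figure D5:**
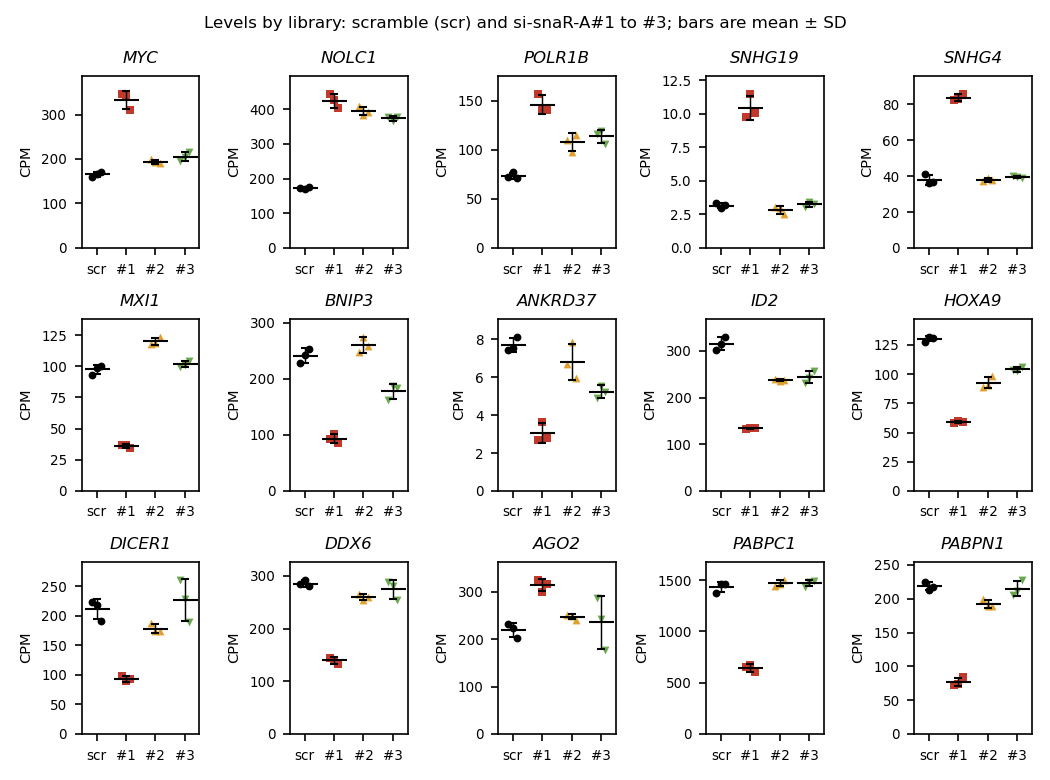
CPM of 15 genes in each library (points) with the mean ± SD of each group, in scramble (scr) and after si-snaR-A#1, #2 and #3. MYC, NOLC1, POLR1B, SNHG19, SNHG4 and AGO2 are higher with si-snaR-A#1 than with scramble and the other 9 genes are lower, PABPC1 falling from between 1375 and 1465 CPM to between 605 and 676 CPM. NOLC1 is nearly as high with the other siRNAs.

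Splicing genes went in several directions. Of 23 U2 snRNP protein genes, 11 were higher and 5 lower (median 0.147, GC content 46.7%). PHF5A, U2AF1, SF3B2 and SF3B3 rose by 0.66, 0.52, 0.51 and 0.47, and U2AF2 and RBM17 fell by 0.28 and 0.40. Differences of SF3B2 from the other siRNAs were not called, at 0.07 and 0.06 (edgeR adjusted p 0.152 and 0.180). Of 44 SR and hnRNP genes, 20 were lower and 9 higher, but their median of -0.111 (GC content 41.5%) was -0.013 with the trend removed. PTBP3, a splicing repressor, fell from 166 ± 7.85 to 64.8 ± 4.13 CPM (SD, n = 3 each), and SRSF11 and SRSF9 fell by 0.76 and 0.60. Exons of SF3B2, U2AF2 and SRSF9 overlap those of other genes.

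Genes of protein secretion and of lysosomes gave more lower than higher calls. Of 34 genes for coats and tethers of protein secretion, 19 were lower and 3 higher (median -0.136, GC content 44.6%, -0.067 with the trend removed). The number lower was 9 when only the 6 libraries were fitted and 12 with edgeR's exact test. ARF4, a GTPase that starts coat assembly, fell by 0.79 (SE 0.05), and the cargo receptor LMAN1 fell by 0.56. None of the 34 was above both other siRNAs and 25 were below both, by the edgeR test (background 17.6% and 19%). Of 49 lysosome and autophagy genes, 20 were lower and 9 higher (40.8% lower, median -0.107, GC content 49.1%), near the 33.5% lower among protein-coding genes that averaged 10 CPM or more. The median was -0.054 without si-snaR-A#1 replicate 3, and the counts were 15 lower and 10 higher on the 6 libraries. The autophagy receptor NBR1 and MAP1LC3B fell by 0.91 and 0.77, and ATG2A rose by 0.91. Of 24 genes of the endoplasmic reticulum stress response, 7 were lower and 11 higher. The chaperone HSPA5 fell by 0.61, CANX rose by 0.66, and 15 members were below both other siRNAs. Exons of ARF4, NBR1, MAP1LC3B and CANX overlap those of other genes.

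In lipid and amino acid supply, 12 of 24 cholesterol genes were lower and 4 higher (median -0.117, and -0.055 without si-snaR-A#1 replicate 3). Of 18 genes of fatty acid synthesis, 5 were lower and 5 higher (27.8% each, median 0.08). The number higher was 8 with DESeq2 or with the filter at a mean of 1 CPM. SC5D, which acts late in cholesterol synthesis, was at 197, 208 and 206 CPM in scramble and 91.2, 92.4 and 86.9 CPM with si-snaR-A#1, and IDI1 fell by 0.81. Of 33 genes of the integrated stress response, 12 were lower (36.4%) and 9 higher (27.3%). These shares were near the background of 33.5% and 30.3% among protein-coding genes that averaged 10 CPM or more. The largest rise was in SLC7A5, a leucine transporter, from 90.8, 94.0 and 97.2 CPM to 239, 219 and 208 CPM. The mitochondrial genome gave 7 lower and 0 higher of 13 genes (median -0.345), with MT-CO2 at 4157, 4570 and 3703 CPM in scramble and 2937, 2470 and 2921 CPM with si-snaR-A#1. That count was 2 without si-snaR-A#1 replicate 2, 2 without scramble replicate 2 and 3 without scramble replicate 1, and 3 of the 13 were below both other siRNAs. Nuclear genes for complexes II to V gave 20 lower and 5 higher of 41, and the number lower was 10 on the 6 libraries, 12 with the trend removed, 12 without si-snaR-A#1 replicate 3 or scramble replicate 3, and 13 without scramble replicate 2 or with edgeR's exact test. The number higher was 3 without replicate 1 of either group. Those for complex I gave 13 lower and 4 higher of 36 (36.1% and 11.1%), with the share lower near the same background. Exons of IDI1 and SLC7A5 overlap those of other genes.

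Genes of the cell cycle gave calls on both sides. Of 52 DNA replication genes, 22 were lower (42.3%) and 13 higher (median -0.08). The background among protein-coding genes that averaged 10 CPM or more was 33.5% lower and 30.3% higher. The number lower was 15, with 13 higher, on the 6 libraries and 16, with 13 higher, with edgeR's exact test. It was 16, with 12 higher, with the trend removed. RFC5, a subunit of the clamp loader, fell by 1.15, and E2F1 and MCM2 rose by 0.39 and 0.37. Of 50 mitosis genes, 17 were lower and 15 higher (median -0.02), shares near the same background. With the trend removed, 20 were higher and 13 lower (median 0.08). NEK2 and CDK1 fell by 0.95 and 0.55, and CENPF and AURKB rose by 0.53 and 0.40. Of 50 DNA repair genes, 23 were lower and 2 higher (median -0.140). The counts were 15 lower and 6 higher with the trend removed (median -0.075), and the number higher was 5 without si-snaR-A#1 replicate 3, with upper quartile scaling or with the filter at a mean of 1 CPM. PARP1, a sensor of DNA breaks, was at 1038, 1106 and 1100 CPM in scramble and 632, 640 and 564 CPM with si-snaR-A#1. BRCA1, MRE11 and RAD50 fell by 0.50, 0.43 and 0.39, and ERCC2 and XRCC2 rose by 0.57 and 0.47. Of 29 p53 targets, 10 were lower (34.5%, near the same background) and 7 higher (24.1%), in a line in which large T antigen binds p53. The number higher was 4 without scramble replicate 3. TP53INP1 fell by 1.20 and BBC3, a promoter of cell death, rose by 0.55. Exons of RFC5, MCM2, BRCA1, RAD50, ERCC2, TP53INP1 and BBC3 overlap those of other genes.

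Replication-dependent histone genes had the highest median, 0.496 (GC content 56.2%), but of 47 tested only 11 were called higher and 2 lower. Their mRNAs normally end without a poly(A) tail, and most were low in these poly(A)-selected libraries, with a median level of 0.497 CPM. The number called higher was 3 without scramble replicate 2, 16 without scramble replicate 3, 4 without any one of si-snaR-A#1 replicate 1, si-snaR-A#1 replicate 2 or scramble replicate 1, and 6 with the trend removed. The number lower was 0 without si-snaR-A#1 replicate 3 or scramble replicate 2, and the median was 0.776 without scramble replicate 3. H2BC15 was at 3.93, 3.84 and 5.63 CPM in scramble and 6.99, 6.54 and 6.36 CPM with si-snaR-A#1 (log2 fold change 0.57, SE 0.19), a call lost without replicate 1 or 2 of either group. The replacement histones, which have poly(A) tails, gave 6 lower and 2 higher of 11 (median -0.245).

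Structural genes showed a few large changes within mixed lists. Of 38 actin and myosin genes, 13 were higher and 10 lower (34.2% and 26.3%). Among protein-coding genes that averaged 10 CPM or more, the shares were 30.3% and 33.5%. TPM4, a tropomyosin, rose by 1.20 and MYH9, the heavy chain of nonmuscle myosin, from 159, 144 and 157 CPM to 315, 325 and 311 CPM, while PFN2 and ACTN1 fell by 0.89 and 0.68. TPM4 lay below both other siRNAs, by 0.31 and 0.29, and MYH9 above both, by 0.47 and 0.78. Of 68 cadherins and protocadherins, 13 were higher and 5 lower (median 0.224), and most were low, at a median of 0.449 CPM. CDH11 and CDH24 rose by 1.68 and 0.91, and the epithelial and neural cadherins CDH1 and CDH2 fell by 0.76 and 0.61. Of 46 synaptic vesicle genes, 18 were lower and 8 higher, with SV2A and SYT6 at -1.121 and -1.32 and SYNGR3 at 1.124. Of these 46, 13 were above both other siRNAs and 8 below both. Their median difference was 0.114 from si-snaR-A#2 and 0.06 from si-snaR-A#3. Of 52 cilium genes, 22 were lower and 8 higher, but the median of -0.102 (GC content 42.8%) was -0.014 with the trend removed. Exons of TPM4, MYH9, PFN2, ACTN1, CDH11, CDH1 and CDH2 overlap those of other genes.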

How the data were processed

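RNA was measured in 12 libraries of HEK293T cells, 3 per group, grouped by the labels. Per the labels, the authors trimmed reads with Trim Galore and quantified them with Salmon (hg38), and they deposited estimated counts for Ensembl gene IDs, unscaled for depth. The transcript release and use of strand are not given in the sources used here. The values look rescaled by transcript length, and were rounded to whole counts. Genes kept by filterByExpr (21999 of 63541) were fitted over all 12 libraries with edgeR 4.0.16 in R 4.3.3 (TMM, quasi-likelihood test, no covariate), called at an adjusted p under 0.05. The contrasts were si-snaR-A#1 minus scramble, si-snaR-A#2 and si-snaR-A#3. The fit was tested on simulated data.

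Symbols, GC content and exons came from GENCODE release 44 (58160 IDs matched, 5381 did not), and promoter windows from RefSeq. Named genes were the 12 largest rises and 12 largest falls among called protein-coding genes with at least 5 CPM on average, counts in every library and no overlap between groups. Further named genes were 4 and 4 lncRNAs with at least 1 CPM, up to 3 and 3 called members of each list, up to 2 genes of each of 12 symbol families, and SF3B2, SSB and NME1, which the study follows. The largest rises and falls that also differed from both other siRNAs in the same direction were named as well. Some genes of the rule and lists are not reported here, in the text or the plots. Other list members are named for their role, chosen after their values were seen. The comparison, the lists and the rule were chosen with earlier results of these data known. List medians did not move by over 0.01 when genes at 0 counts in a whole group were set to the bound of 3 counts per library (5 lists held such a gene). Replicates of these 2 groups differed by more than counting error (chi-square over its degrees of freedom, 13 to 38.9). Replicate numbers did not pair the libraries. The number of columns left out was 0. Alternatives were RLE and upper quartile scaling, a filter at a mean of 1 CPM, no filter, a replicate block, removal of a GC and length trend, the 6 libraries alone, edgeR's exact test, DESeq2 1.42.0 and leaving out each library.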

Additional observations from a re-analysis of the deposited data

Results flagged for a closer look

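For 12 of the genes with the largest changes, the effect of si-snaR-A#1 differed from that of the other siRNAs by edgeR's test of the difference itself. These genes were picked for the size of their change against scramble and for no overlap with it. A called difference from both other siRNAs in the same direction was also a condition of the choice. The same si-snaR-A#1 libraries enter both contrasts, so the test is not independent of the choice and the values are a description. On the log2 scale, the level after si-snaR-A#1 exceeded those after siRNAs #2 and #3, in that order, by 1.11 and 1.15 for PLXNC1, by 1.06 and 1.23 for MYB, by 0.58 and 0.76 for HLF, by 1.60 and 1.84 for NANOS1, by 1.35 and 1.68 for NR6A1 and by 1.42 and 1.53 for GPR50. For the genes that fell, the differences were -2.41 and -2.53 for ERAP2, -1.21 and -1.45 for NTAN1, -1.49 and -1.81 for SMIM30, -1.73 and -1.74 for PHYH, -1.22 and -1.23 for INA and -2.37 and -1.96 for PCK1. No group had the 4 or more samples needed to look for single libraries that stand apart.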

How the results depend on the processing

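The number called over 2-fold depended on low levels: with a filter at a mean of 1 CPM it was 204 higher and 200 lower in place of 621 and 561. More genes were called higher than lower with RLE scaling (4927 and 4904), with the trend of GC content and length removed (4965 and 4589), with edgeR's exact test (5047 and 4252), with the 6 libraries alone (5079 and 4308) and with the 1 CPM filter (4705 and 4332), and fewer with TMM, upper quartile scaling (5033 and 5116) and DESeq2 (4925 and 4944). Leaving out 1 library gave between 4136 and 4710 higher and between 4470 and 4822 lower. Replicate numbers are shared by the labels, but same-numbered libraries of the 2 groups correlated at 0.00277, 0.172 and -0.109, so they were not taken as pairs. A replicate block gave 4698 higher and 4955 lower. Among named genes, DNAJB4 was lower (-0.166) and 0.140 higher with the trend removed (edgeR adjusted p 0.0343). NME1, not called at -0.04, was 0.006 without si-snaR-A#1 replicate 3 and 0.003 without scramble replicate 3, and its lowest value was -0.078. Over all alternatives, 78 values of named genes lost their call, 5554 kept their direction and side of the threshold, and 3 turned. The cause was not tested.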

Other observations

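Families of protein-coding genes that share the letters of their symbol before the first digit gave a view that needs no list. Of 200 families with at least 10 tested members, the highest median was in CHST, the carbohydrate sulfotransferases that decorate proteoglycans and glycans. Of its 15 members, 9 were called higher and 0 lower after si-snaR-A#1 by edgeR's quasi-likelihood test, with a median log2 fold change of 0.483, and the same number, 9, lay above both other siRNAs. CHST3 rose from 21.5 to 39.8 CPM and CHST14 from 6.94 to 12.5 CPM on average (n = 3 each). Next came symbols that begin with H before a digit, mostly histones, at 0.389, with 13 of 59 higher and 6 lower. TRAF, adaptors of TNF receptors, followed at 0.328, with 5 of 10 higher and 1 lower. TRAF2 and TRAF3 rose by 0.68 and 0.61. Then came ZFP zinc fingers (0.300, 11 of 20 higher and 4 lower) and PTPN tyrosine phosphatases (0.294, 7 of 15 higher and 4 lower). PCDHGA protocadherins were at 0.269, with 0 of 10 called. Among all protein-coding genes tested, 24.9% were higher and 28.9% lower.

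At the other end stood CLEC lectins (-0.861), HOXA (-0.823), EFCAB genes with calcium-binding EF hands (-0.623), SRSF splicing factors (-0.366), GOLGA golgins (-0.364) and DNAH dynein heavy chains (-0.363). Of 12 SRSF genes, 10 were lower and 1 higher, and of 10 EFCAB genes 5 were lower and 0 higher. Of 10 CLEC genes, only 4 were called lower and 1 higher, and of 12 DNAH genes only 3 lower and 0 higher. Of 26 GOLGA genes, 10 were lower and 0 higher. Golgin copies are near-identical in part, so their counts are uncertain. The 12 families were chosen on their medians, which carry no test. GC content was not set beside the families, and their medians are given without removal of the GC and length trend. In the list of SR and hnRNP genes (GC content 41.5%), removal of that trend took the median from -0.111 to -0.013.

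Protein-coding genes on chromosomes 16 and 19 had more calls higher than lower (32.9% and 17.7%, 31.2% and 18.3%), as had chromosome 22, with 118 higher and 65 lower of 362, and those on chromosome 13 fewer (22.0% and 41.6%). Zinc finger genes on chromosome 19 gave 40 higher and 59 lower of 229, but 57 higher and 37 lower with the trend of GC content and length removed (median GC content 42.4%). GC content was not compared between chromosomes.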
